A study of Mus musculus with 6 samples.

Results

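The mouse alpha-defensin genes Defa3, Defa5, Defa17, Defa26, Defa28 and Defa41 were examined as the middle tier of their family in deposited counts of Paneth cells. These 6 genes were listed from the 28 core protein-coding alpha-defensins of the study because their mean level over all 6 libraries lay between 10 and 5000 CPM (the count of a gene scaled to a common library total). They were thus chosen by the measured level, and their mean levels are given as a description. The count table held 55414 genes in all. The range itself held 9 core genes: Defa34, Defa35 and Defa40, with means of 2439, 344 and 1881 CPM, also lay in it but are not on the list. At the edges, Defa28 had the lowest mean of the 6 genes, 28.2 CPM, and the next core gene below the range was Defa27 with 4.69 CPM. Defa26 had the highest, 2970 CPM, and the next core gene above the range was Defa29 with 10561 CPM. The most abundant core gene, Defa24, had a mean of 246749 CPM.

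Bulk RNA-seq was performed on FACS-purified Paneth cells of wild-type C57BL/6J mice, taken from small intestine. All mice received tumor necrosis factor (TNF) 3 hours before sampling, after 7 weeks on standard chow in a group of 3 libraries or on zinc depleted chow in the other group of 3. No library of mice without TNF was used here, so all values are levels after TNF. The design text speaks of 4 biological replicates per group, whereas the labels give 3.

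Paneth cells occupy the bottom of small intestinal crypts and release granules with antimicrobial peptides. The alpha-defensins among these are short cationic peptides that are made as pre-pro-peptides, held in shape by disulfide bonds between conserved cysteines, and cut to their active form by matrix metalloproteinase 7 in the mouse. They damage bacterial membranes and bind a precursor of the bacterial cell wall. Their genes form a dense cluster on mouse chromosome 8 and resemble each other closely, which makes it hard to assign short reads to a single gene.

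All 6 genes lie on the plus strand of chromosome 8, and the canonical transcript of each has 2 exons. In GRCm39 with the GENCODE M39 annotation, Defa41 (ENSMUSG00000079116) spans 21681585 to 21692570, Defa3 (ENSMUSG00000074440) spans 21777413 to 21778393, and Defa5 (ENSMUSG00000074439) spans 21787455 to 21788391. Farther along, Defa28 (ENSMUSG00000074434) spans 22072965 to 22073980, Defa26 (ENSMUSG00000060070) spans 22108199 to 22108988, and Defa17 (ENSMUSG00000060208) spans 22145772 to 22146753. Defa3 and Defa5 are neighbors, 9061 bases apart, and Defa26 and Defa17 follow each other among the core genes, 36783 bases apart. Defa5 and Defa17 are separated by 357380 bases.

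The ends of the coding sequences show how far the 6 genes can be told apart. The last 102 coding bases before the stop codon are given 5′ to 3′ from GENCODE M39, in lower case, with capitals at bases that differ from Defa24 in an alignment of all 28 coding sequences. The sequence of Defa24 is given for reference. Gaps are not marked: Defa28 lacks bases that Defa24 has in this stretch, so its line starts earlier in the alignment.
Defa3 (chr8:21778195-21778296): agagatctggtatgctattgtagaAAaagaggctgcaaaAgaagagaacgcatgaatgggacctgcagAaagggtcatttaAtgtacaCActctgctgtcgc
Defa17 (chr8:22146553-22146654): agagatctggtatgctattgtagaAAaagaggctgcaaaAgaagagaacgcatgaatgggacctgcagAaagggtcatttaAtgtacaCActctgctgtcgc
Defa26 (chr8:22108794-22108895): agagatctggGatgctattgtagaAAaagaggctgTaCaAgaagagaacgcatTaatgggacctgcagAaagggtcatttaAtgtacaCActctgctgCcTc
Defa28 (chr8:22073779-22073880): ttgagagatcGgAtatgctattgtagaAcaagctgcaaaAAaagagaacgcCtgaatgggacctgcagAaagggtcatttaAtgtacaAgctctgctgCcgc
Defa5 (chr8:21788193-21788294): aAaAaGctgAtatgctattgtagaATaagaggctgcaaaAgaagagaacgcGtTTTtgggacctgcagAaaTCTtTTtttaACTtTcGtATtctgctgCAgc
Defa41 (chr8:21692358-21692459): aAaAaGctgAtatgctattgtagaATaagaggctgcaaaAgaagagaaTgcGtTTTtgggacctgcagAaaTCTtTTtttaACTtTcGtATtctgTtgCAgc
Defa24 (chr8:22225289-22225390): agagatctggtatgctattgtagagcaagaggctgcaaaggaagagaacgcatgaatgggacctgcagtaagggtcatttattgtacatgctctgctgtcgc

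Defa3 and Defa17 were the same in this stretch and over their whole coding sequence of 279 bases, although they lie far apart in the cluster. Defa5 and Defa41 formed the other close pair, with 98.9% identity and 3 differing bases over 279. Between these pairs the identity was 84.2% to 85.3%. Defa26 differed from Defa3 and Defa17 at 20 bases (92.8% identity), and Defa28 differed from them at 20 of 276 aligned bases. The nearest core gene of Defa26 was Defa40 with 97.8% identity, and that of Defa28 was Defa27 with 97.4%.

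Because counts per gene can depend on whether reads match a single gene, the canonical transcripts were compared over stretches of 75 bases with all annotated transcripts. A stretch was called specific if no other gene held it exactly. Of the stretches of Defa26, 85.9% were specific, and this was 69.2% for Defa41, 40.7% for Defa28, 8.05% for Defa3, 8.07% for Defa17 and 2.32% for Defa5. Outside its coding sequence, the Defa3 transcript differed from that of Defa17 by a single substitution, T395C (base of Defa3, position counted from 1 at the 5′ end of the Defa3 transcript, base of Defa17), which lies 70 bases past the end of the coding sequence, and by a length difference of 1 base. All 28 specific stretches of either gene were those that cover this position. Defa5 had 7 specific stretches, all within its coding sequence, and 77.2% of its stretches were shared with Defa34. How reads with several matches were counted is not stated in the sources used here, so the division of reads between Defa3 and Defa17, and between Defa5 and its relatives, is uncertain.

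Over the 28 core genes, 8 had no specific stretch and their mean levels lay between 0.0663 and 2.76 CPM. The other 20 ranged from 0.0334 to 246749 CPM, with a median of 2160 CPM. The 6 genes thus included 3 with few specific stretches (Defa3, Defa5 and Defa17) and 3 with many (Defa26, Defa28 and Defa41).

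**Figure D1:**
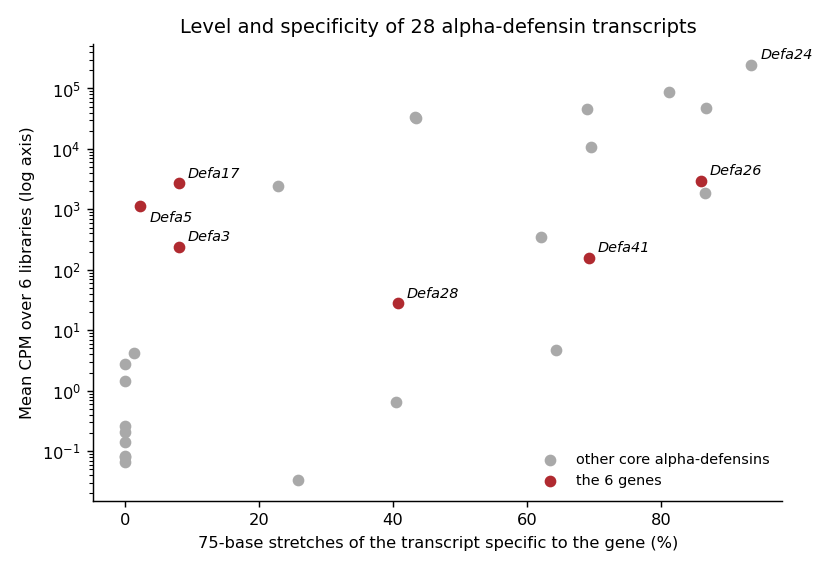
Mean level over 6 libraries in CPM (log axis) against the percentage of 75-base transcript stretches specific to the gene, with 1 point per core alpha-defensin gene. The 6 genes (red) spread from 2.32% (Defa5) to 85.9% (Defa26) specific, and Defa24 stands highest.

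The family took 45.5% to 60.5% of the counts of a library, and the libraries held 6139397 to 12772373 counts. The study's own quantification with Salmon put the family at a larger part of all transcripts. Defa2, Defa23, Defa33, Defa36 and Defa43 were abundant there, but had means of only 0.0334 to 2.76 CPM here. All shares of the family given here are thus shares of the deposited counts, and the reason for the difference was not tested. A count of 0 would allow up to 0.235 to 0.489 CPM, and all 6 genes lay well above this in each library. The 6 genes together took 1.15%, 1.19% and 2.34% of the family counts in standard diet replicates 1, 2 and 3, and 1.16%, 1.26% and 1.24% in zinc depleted replicates 1, 2 and 3. Standard diet replicate 3 stood apart as the highest, and the other standard diet libraries lay within or just below the zinc depleted range. The standard diet mean was 1.56% ± 0.677 and the zinc depleted mean 1.22% ± 0.0567 (SD, n = 3 each). Lists of marker genes for other cells were summed in CPM beside these values. The stem cell markers summed to 1174 to 3612 CPM with standard diet and 474 to 569 with zinc depletion, the proliferation markers to 98.2 to 241 and 44.1 to 76.8, and the enteroendocrine markers to 35.5 to 68.2 and 23.3 to 29.3, all without overlap. Goblet (7190 to 8539 and 4828 to 12022), tuft (25.0 to 777 and 29.8 to 197), enterocyte (19.2 to 131 and 12.9 to 23.0) and immune markers (35.8 to 143 and 33.1 to 55.5) overlapped. The T cell gene Cd3e had no count in any library. The Paneth cell markers Lyz1, Mmp7, Ang4, Itln1 and Mptx2 were all counted and summed to 202731 to 246779 and 248139 to 279901 CPM, also without overlap. Most of this sum was Lyz1, and Ang4 alone was without overlap by itself. Itln1 had 55419, 66046 and 57816 CPM on standard diet and 63894, 37776 and 35482 CPM after zinc depletion. Olfm4 made up most of the stem cell sum, and Lgr5, Smoc2 and Axin2 overlapped singly. So did Mki67 and Top2a of the proliferation list, and Chga, Neurod1 and Sct of the enteroendocrine list. These sums are plain CPM without the library scaling of the tests below, and the lack of overlap is stated for CPM only. In CPM, 10.3% of the genes tested below were lower with zinc depletion without overlap, and 0.554% were higher. The median log2 fold change of these genes with total counts was -0.66. The part of these other cells in the results was not tested.

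To compare levels between genes, counts were divided by the length of the canonical transcript and scaled to the same sum in every library (TPM). On this length-corrected scale Defa26 had a mean of 5032, Defa17 of 4087, Defa5 of 1892, Defa3 of 360, Defa41 of 232 and Defa28 of 44.6, against 369619 for Defa24. Defa26 and Defa17 cannot be ordered firmly, since Defa26 was higher in 5 libraries and Defa17 was higher in standard diet replicate 3 (10161 against 5412). Defa3 and Defa41 also changed places: Defa41 was higher in zinc depleted replicates 2 and 3 and Defa3 in the other 4 libraries. In every library Defa17 lay above Defa5, Defa5 above Defa3, and Defa28 lowest.

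Defa17, one of the genes for a Paneth cell alpha-defensin peptide, had the widest fold range among the 6 genes in its share of the family. It had 1839, 1893 and 7048 CPM in standard diet replicates 1, 2 and 3 and 1929, 1788 and 1914 CPM in zinc depleted replicates 1, 2 and 3. Apart from standard diet replicate 3, the libraries of both diets lay between 1788 and 1929 CPM. The standard diet mean was 3593 CPM ± 2992 and the zinc depleted mean 1877 CPM ± 77.8 (SD, n = 3 each). As a share of the family, Defa17 took 0.397%, 0.416% and 1.27% on standard diet, against 0.414%, 0.321% and 0.316% on zinc depleted diet, and the widest Wilson 95% interval of these shares ran from 1.265% to 1.284%. The share in standard diet replicate 3 was 3.21 times the median of the other libraries. Zinc depleted replicates 2 and 3 were the lowest in share, and the family took 55.7% and 60.5% of their counts. In standard diet replicate 3, the highest in share, the family took a like part, 55.3%.

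Defa3, which encodes the same peptide sequence as Defa17 by its identical coding bases, was counted at a far lower level. The study's own quantification of transcripts, with Salmon and over more Paneth cell samples, gave the opposite order, with Defa3 above Defa17. Before transcripts joined from different alpha-defensin genes were added to it, the median of Defa3 was below that of Defa24 only. The order and the middle tier given here are thus those of the deposited counts, and the reason for the difference was not tested. Standard diet replicates 1, 2 and 3 held 228, 165 and 430 CPM of it, and zinc depleted replicates 1, 2 and 3 held 155, 219 and 252 CPM. Again standard diet replicate 3 was highest, and the other libraries of both diets overlapped. The count of Defa17 was 8.08, 11.5 and 16.4 times that of Defa3 in the standard diet libraries and 12.5, 8.17 and 7.60 times in the zinc depleted libraries. When the counts of this pair were added, the standard diet libraries came to 2067, 2057 and 7478 CPM, against 2084, 2006 and 2166 CPM for the zinc depleted ones. The sum was also highest in standard diet replicate 3.

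Defa5 gave the third gene with this pattern. It had 665, 719 and 1996 CPM in the standard diet libraries and 837, 1351 and 1272 CPM in the zinc depleted libraries. The 3 zinc depleted libraries lay above standard diet replicates 1 and 2 and below standard diet replicate 3. Its share of the family was 0.144%, 0.158% and 0.361% in the former and 0.180%, 0.242% and 0.210% in the latter. In standard diet replicate 3 the shares of Defa3 and Defa5 were 1.98 and 2.01 times the median of the other libraries, while those of Defa26, Defa28 and Defa41 were 1.07, 1.13 and 1.25 times. Among the listed genes, the 3 with the highest ratios in that library were thus also the 3 with the fewest specific stretches. This grouping was made after the values were seen, and it did not hold for all core genes. Defa34, outside the list, had 22.9% specific stretches and a ratio of 1.045. Core genes below 10 CPM with at most 1.42% specific stretches went both ways, for example Defa42 (0.632), Defa43 (0.79) and Defa37 (1.75). Whether the assignment of reads has a part in the high ratios was not tested.

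Defa26 was the steadiest of the 6 genes relative to the family. Its CPM was 2460, 2554 and 3317 in standard diet replicates 1 to 3, and 2368, 3366 and 3752 in zinc depleted replicates 1 to 3, so the groups overlapped. Its share was 0.532%, 0.562% and 0.600% in the first group and 0.508%, 0.604% and 0.620% in the second, a 1.22-fold range over the 6 libraries, against 4.03-fold for Defa17, 3.27-fold for Defa41, 2.51-fold for Defa5, 2.34-fold for Defa3 and 1.71-fold for Defa28. Among the 6 genes it also had the largest percentage of specific stretches.

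Defa41 separated the zinc depleted libraries from each other, as did Defa34 and Defa40. Its CPM was 87.6, 77.7 and 131 on the standard diet, compared to 73.6, 274 and 312 after zinc depletion. Zinc depleted replicates 2 and 3 were above every standard diet library, whereas zinc depleted replicate 1 was the lowest of all 6, so the groups overlapped. The share of the family showed the same order, with 0.0189%, 0.0171% and 0.0237% for standard diet and 0.0158%, 0.0492% and 0.0516% for zinc depletion. Defa34 had shares of 0.371%, 0.721% and 0.672% in zinc depleted replicates 1, 2 and 3, and Defa40 had 0.300%, 0.4345% and 0.478%. In the annotation, 32 exon bases of Defa41 are shared with Defa31 on the same strand, none of them in the canonical Defa41 transcript, and Defa31 had a mean of 1.44 CPM.

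Defa28 was the least abundant of the 6, with 32.8, 26.4 and 33.5 CPM in the standard diet libraries and 21.3, 29.9 and 25.1 CPM in the zinc depleted libraries. These levels rest on 162 to 334 counts per library, and the groups overlapped. As a share of the family, Defa28 took 0.00710%, 0.00580% and 0.00605% on standard diet, against 0.00457%, 0.00536% and 0.00414% on zinc depleted diet. Here the groups did not overlap, and all 3 zinc depleted libraries were lower. The counting error was not small beside this gap, since the Wilson 95% intervals of standard diet replicate 2 (0.00497% to 0.00677%) and zinc depleted replicate 2 (0.00470% to 0.00611%) overlapped.

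**Figure D2:**
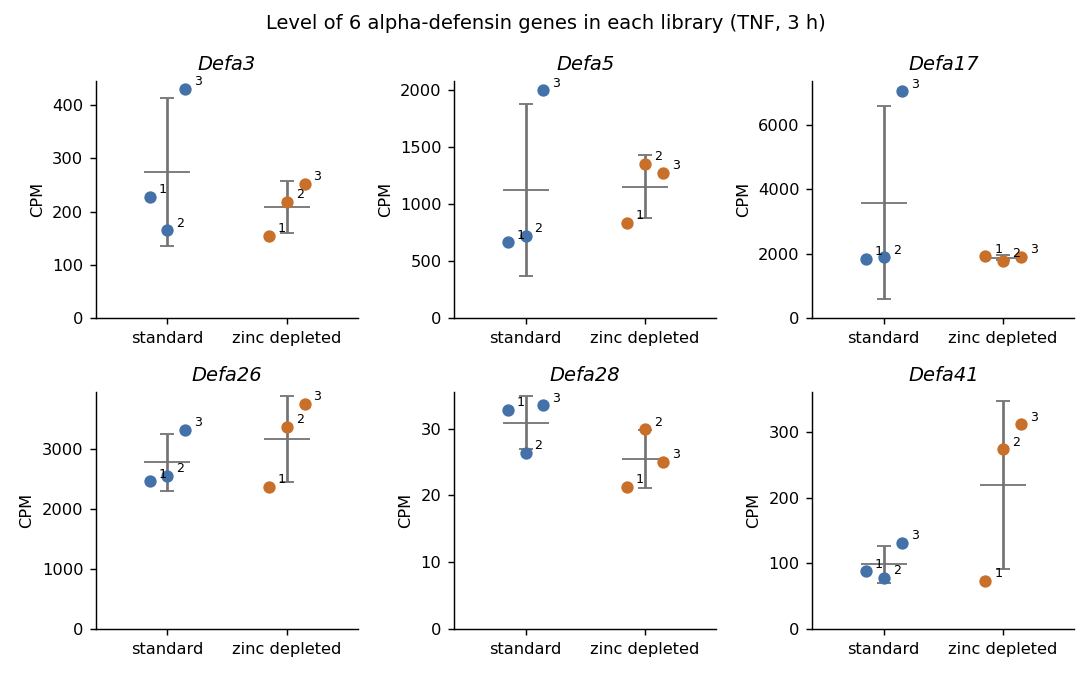
CPM of each of the 6 genes in every library, with standard diet in blue and zinc depleted diet in orange. Points carry the replicate number, horizontal bars are means and error bars are SD (n = 3). Defa17 reaches 7048 CPM in standard diet replicate 3 and stays between 1788 and 1929 CPM elsewhere, and Defa41 is highest in zinc depleted replicates 2 and 3.

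The effect of zinc depletion was then tested in all 9749 genes that passed the filter on low counts, with the edgeR quasi-likelihood test and TMM scaling (a library scaling that takes most genes as unchanged). All 6 genes passed the filter. None of them passed an adjusted p of 0.05, and neither did any other gene (0% of the genes tested). The smallest edgeR adjusted p over all genes was 0.681. At an unadjusted edgeR p under 0.05, 1 of the 6 genes was found (Defa41, higher), where the background was 6.62% of the genes tested (645 genes), or 2.58% counting only those higher. In CPM, 0 of the 6 genes showed groups without overlap, where 0.554% of the genes tested were higher and 10.3% lower without overlap. DESeq2 called 10 genes and limma-voom called 0, without any of the 6 genes, and they gave 815 and 625 genes at an unadjusted p under 0.05. In bulk samples, fewer cells that express a gene and less RNA of it per cell cannot be told apart.

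Relative to most other genes, 5 of the 6 genes had a positive log2 fold change with zinc depletion, with a median of 0.73, where 50% of all genes tested were positive with a median of 0.00. Defa41 had the largest value, 2.22 (SE 0.79). Defa26 followed with 1.14 (SE 0.67), and Defa5 with 0.82 (SE 0.76), at edgeR adjusted p of 0.681, 0.681 and 0.764. The values of Defa28 and Defa3 were 0.64 (SE 0.52) and 0.47 (SE 0.69), and Defa17 had -0.30 (SE 0.79), with edgeR adjusted p of 0.731, 0.838 and 0.916. Of the 28 core genes, 20 passed the filter and 19 of these were positive, with a median of 1.16. With total counts, 15 of these core genes were positive with a median of 0.23, and against the family sum, 12 with a median of 0.07.

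These values depended on the scaling. The TMM factors ran from 1.73 in standard diet replicate 1 to 0.460 in zinc depleted replicate 3, and total counts alone moved the median of all genes to -0.66. With total counts, 3 of the 6 genes were positive (Defa5, Defa26 and Defa41), where the background was 13.1% of all genes. Their log2 fold changes were 0.03, 0.19 and 1.15, and those of Defa3, Defa17 and Defa28 were -0.40, -0.94 and -0.28. No call changed.

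Single libraries moved the values as well. Without standard diet replicate 3, Defa17 turned to 1.29 (edgeR adjusted p 0.375), Defa5 moved to 2.12 (edgeR adjusted p 0.225) and Defa3 to 1.50 (edgeR adjusted p 0.319) on the log2 scale, none past the threshold, while 28 of all genes were called. Defa41 was 2.96 without that library, 2.75 without zinc depleted replicate 1 and 1.56 without zinc depleted replicate 3, at edgeR adjusted p of 0.198, 0.117 and 0.862. With no low-count filter Defa41 was the only one of the 6 genes called (log2 fold change 2.16, edgeR adjusted p 0.0104), where 0.427% of 17790 genes were called and 0.101% were called higher. Its adjusted p ranged from 0.0104 to 1.00 over the alternatives.

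To remove the change of the family as a whole, the test was repeated with each library scaled to the sum of its 28 core alpha-defensins. A log2 fold change is here the change of a gene against the family sum. None of the 6 genes and none of the other genes passed the threshold in edgeR (0% called, smallest adjusted p 0.719), and 444 genes (4.55%) had an unadjusted p under 0.05. Defa41 (0.96, SE 0.57) and Defa26 (0.03, SE 0.28) were positive, and 10.3% of all genes tested were positive with a median of -0.76. The values were -0.07 (SE 0.43) for Defa5, -0.43 (SE 0.57) for Defa28, -0.52 (SE 0.47) for Defa3 and -0.99 (SE 0.46) for Defa17. The edgeR adjusted p was 0.719 for Defa3, Defa17 and Defa41, 0.750 for Defa28, 0.938 for Defa5 and 0.953 for Defa26. The SE was thus smallest for Defa26 and largest for Defa41 and Defa28. For Defa17, -0.99 became -0.22 without standard diet replicate 3.

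When zinc depleted replicate 1 was left out of this family-scaled test, Defa41 (log2 fold change 1.34, edgeR adjusted p 0.0221) and Defa17 (-1.13, edgeR adjusted p 0.0244) passed the threshold. In the same setting 4203 of 10010 genes (42.0%) were called, of which 7 were higher (0.0699%) and 4196 lower (41.9%). The call of Defa41 was thus among the 7 higher ones, and that of Defa17 among the 4196 lower ones.

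The shares of the family were also compared without a model. Zinc depletion minus standard diet gave a difference in mean share of -0.346 percentage points for Defa17, from 0.696% ± 0.501 to 0.350% ± 0.0551 (SD, n = 3 each; p = 0.2, exact two-sided permutation test). For Defa28 the mean share went from 0.00632% ± 0.000686 to 0.00469% ± 0.000618 (SD, n = 3 each; p = 0.1, exact two-sided permutation test, the smallest p that 3 against 3 libraries allow). Defa28 was the only one of the 6 genes whose shares did not overlap between the diets, and on this scale 7.52% of all genes tested were lower and 0.328% higher without overlap. For Defa41 it went from 0.0199% ± 0.00342 to 0.0388% ± 0.0200 (SD, n = 3 each; p = 0.4, exact two-sided permutation test). Defa3, Defa5 and Defa26 gave p of 0.3, 1.0 and 0.8 in the same exact permutation test. Adjusted over the 28 core genes, the p was 0.56 for Defa17 and Defa28 and at least 0.747 for the other 4 (exact permutation tests). No adjusted p under 0.05 was possible with 3 against 3 libraries, so this test cannot show whether the shares differ.

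**Figure D3:**
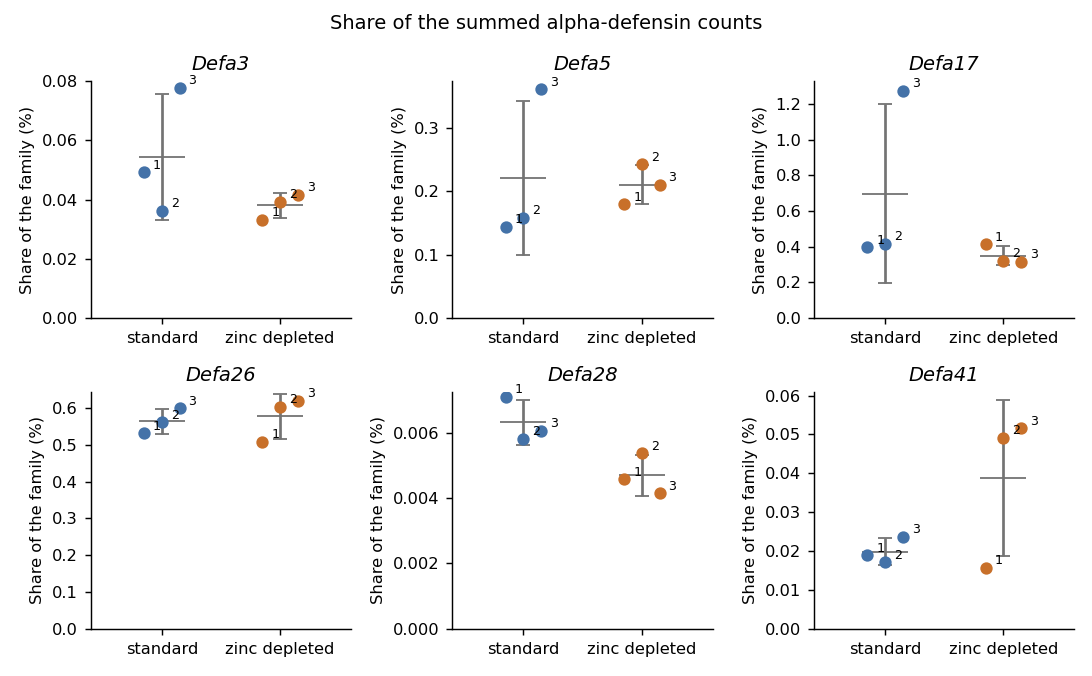
Share of the summed counts of 28 core alpha-defensins taken by each of the 6 genes, in percent, for every library. Colors, replicate numbers, means and SD (n = 3) are as in the plot of CPM. Only Defa28 shows no overlap between the diets, and the shares of Defa26 stay between 0.508% and 0.620%.

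**Figure D4:**
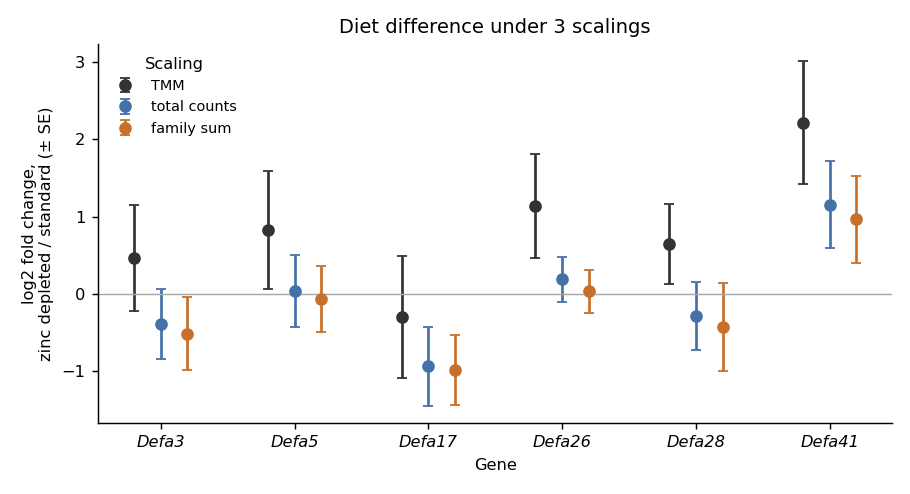
Log2 fold change of zinc depleted over standard diet for each of the 6 genes, with SE, under TMM (black), total counts (blue) and the family sum (orange). Defa41 is positive under all 3 scalings, Defa17 is negative under all 3, and Defa3 and Defa28 are positive under TMM only. None of these values passed an adjusted p of 0.05 in edgeR.

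The genes with the most similar pattern were sought by the Pearson correlation of log2 CPM (TMM, prior count 2) over the 6 libraries among 6477 genes. The closest were Ints12, Plek2 and Bnip1 for Defa3 (r from 0.994 to 0.997), Nt5c3, Krr1 and Lyz2 for Defa5 (0.992 to 0.994), and Rhob, Kti12 and Otub1 for Defa17 (0.971 to 0.990). For Defa26 they were Rwdd1, Mien1 and Psma3 (0.998 to 0.999), for Defa28 Pfdn4, Tomm22 and Tomm20 (0.996 to 0.998), and for Defa41 Mrpl52, Vapb and Psmd10 (0.997 to 0.999). All these points share the same 6 libraries and scaling factors, and r was over 0.9 with 877 genes for Defa41, 858 for Defa26, 751 for Defa28, 473 for Defa5, 298 for Defa3 and 55 for Defa17. Defa17 had the fewest genes of like pattern.

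Within the family, the log2 share was compared among the 16 core genes with a mean of at least 10 CPM. Defa3 and Defa17 were each other's closest gene (r = 0.849 over 6 libraries), and Defa17 was also the closest to Defa5 (r = 0.689). Defa41 was closest to Defa34 (r = 0.949), Defa26 to Defa41 (r = 0.836) and Defa28 to Defa30 (r = 0.637). Shares of the same sum are not independent of each other, and the shares of Defa3, Defa5 and Defa17 were all highest in standard diet replicate 3.

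Genes that act on alpha-defensins were examined next. This list of 10 genes holds the processing protease Mmp7, the zinc transporter Slc30a2 of Paneth cell granules, and regulators of Paneth and secretory cells such as Tcf7l2, Sox9, Atoh1 and Spdef. All were tested and 0 passed the threshold (0% of all genes did). With TMM, 7 had a positive log2 fold change with a median of 0.36, where 50% of all genes tested were positive. With total counts, 4 were positive with a median of -0.11, where 13.1% of all genes were positive with a median of -0.66. Mmp7 was counted at 5779, 4741 and 4806 CPM on standard diet and at 5168, 6605 and 7249 CPM on zinc depleted diet (log2 fold change 1.32, SE 0.65, edgeR adjusted p 0.681). With total counts its log2 fold change was 0.31. Its groups overlapped, as they did for Defa41 and Defa26, and like them it was highest in zinc depleted replicate 3. Slc30a2 was counted at 52.1, 47.4 and 25.7 CPM and at 75.6, 22.1 and 19.7 CPM, and its log2 fold change was 0.52 (SE 0.35) at an edgeR adjusted p of 0.707, which turned to -0.09 with total counts. Of the 11 other Paneth cell products, 9 were tested, 0 passed the threshold and 9 were positive, with a median of 1.46 (7 and 0.52 with total counts). The same background shares apply to them. Of the 6 names listed for cryptdin-related genes, AY761185 alone was found as a separate gene, with at most 1.41 CPM.

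Promoters were read for Defa28 and Defa41, the 2 of the 6 genes found in the RefSeq promoter table (GRCm38.p6, 250 bases before to 50 after the start). They were searched on both strands for the TATA box word TATAAA and for 4 words that TCF/LEF factors of the Wnt pathway are known to bind. The first of these, CTTTGAT, was present in 13 of the 16 core alpha-defensin promoters in the table and in 3.73% of all 32851 promoters. TATAAA was present in 15 of the 16 and in 13.6% of all, with a match in Defa41 and none in Defa28. The word CTTTGAA was in 0 of the 16 and 5.14% of all promoters, whereas CTTTGTT was in 0 and 5.85%, and for CTTTGTA the values were 0 and 3.64%. The matches of CTTTGAT in Defa28 and Defa41 are shown with up to 20 bases on either side, with the word in capitals as its reverse complement.
Defa28, 84 to 78 bases before the start: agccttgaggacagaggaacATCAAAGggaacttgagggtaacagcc
Defa41, 155 to 149 bases before the start: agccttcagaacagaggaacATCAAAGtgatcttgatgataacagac
Defa41, 115 to 109 bases before the start: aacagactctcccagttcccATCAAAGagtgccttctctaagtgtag
Defa41 thus held the word at 2 positions and Defa28 at 1. These matches describe the letters only, and the data hold no measure of factor binding.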

How the data were processed

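The authors deposited raw read counts per Ensembl gene for 6 libraries. Per the labels, single-end reads were made on an Element AVITI, with FastQC, Trimmomatic 0.39, STAR 2.7.10a and DESeq2 named in the submitters' processing notes and mm39 as the build. Use of strand is not given in the sources used here, nor is the counting program.

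Symbols were taken from GENCODE M39 (54749 of 55414 identifiers matched, and the others held at most 0.00479% of a library's counts). The 6 genes, the lists and the tests were chosen with earlier results of these data known. Counts were tested in R 4.3.3 with edgeR 4.0.16 (quasi-likelihood F test, two-sided, TMM, filterByExpr, diet as the only term, Benjamini-Hochberg over all genes, threshold 0.05), and again with library sizes replaced by the sum of the 28 core alpha-defensins. The SE is the absolute log2 fold change divided by the square root of F. Alternatives were DESeq2 1.42.0, limma-voom 3.58.1, other scalings, no filter, a replicate block and leaving out each library. The procedure was tested on simulated counts drawn independently for each gene and library. These held no outlying library and no reads shared between genes, so the test does not cover such cases.

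Coding sequences were aligned with mafft 7.526. Counts of 0 and Wilson 95% intervals cover counting error only. The libraries of a group differed by more than sampling noise, with a chi-square per degree of freedom of at least 15.3. Genes named were the 6 genes, core genes at the limits of the range, Defa24, Defa31, the 3 most similar genes of each, the core gene of most similar share, Mmp7 and Slc30a2. Lyz1, Ang4, Itln1, Mptx2, Tcf7l2, Sox9, Atoh1 and Spdef were named as list members. Defa2, Defa23, Defa33, Defa34, Defa35, Defa36, Defa37, Defa40, Defa42, Defa43, Cd3e and AY761185 were named after their values were seen. The same holds for Olfm4, Lgr5, Smoc2, Axin2, Mki67, Top2a, Chga, Neurod1 and Sct. Protein features were not analysed here.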

Additional observations from a re-analysis of the deposited data

How the results depend on the processing

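None of the 6 genes was called in the tests as reported. The number called was 1 (Defa41) with no low-count filter, and 2 (Defa41 and Defa17) in the family-scaled test without zinc depleted replicate 1, where leaving out 1 library gave 0 to 2; the other settings called 0. The number of genes with a positive log2 fold change was 5, and 3 with total counts. The number of genes with a higher mean share under zinc depletion was 2, and 1 to 3 when 1 library was left out: it was 1 without standard diet replicate 1 and when either the second or the third zinc depleted replicate was left out. Signs turned in these cases. With total counts, Defa3 was -0.40 and Defa28 -0.28. Defa17 was 0.21 with limma-voom and 0.19 with the replicate block, and with 1 library left out it ranged from -0.72 to 1.29, turning positive without standard diet replicate 3 (1.29) or zinc depleted replicate 1 (0.04). Defa3 ranged from -0.0684 (without zinc depleted replicate 3) to 1.50 with 1 library left out. Against the family sum, Defa5 was 0.0415 without Defa24 in the sum and 0.0581 with the replicate block, and -0.30 to 0.48 with 1 library left out. Defa26 was -0.0212 to 0.117 with 1 library left out. The difference in share of Defa5 became 0.0119 percentage points without Defa24 in the sum and -0.0488 to 0.0599 with 1 library left out, and that of Defa26 was -0.00822 to 0.0478 with 1 library left out. The cause was not tested. Same-numbered libraries of the 2 diets did not deviate together throughout (correlations 0.147, -0.0584 and 0.248), so the numbers were not taken as pairs, and libraries did not all correlate best with their own number. With the replicate block, edgeR called 0 genes with TMM and 126 against the family sum (0 without the block), none of them among the 6 genes. Shorter or longer stretches than 75 bases kept Defa26 highest in specificity, with 59.8% at 50 and 98.9% at 100 bases, while Defa5 went from 0% to 11.6%. Low counts limit Defa28 most, with 1492 counts over all libraries.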

Other observations

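Pseudogenes of the cluster lay in the same range of levels. Of 17 annotated Defa pseudogenes, 5 had a mean of at least 10 CPM. They were Defa-ps6 (166 CPM), Defa-ps7 (71.8 CPM), Defa-ps18 (40.8 CPM), Defa-ps1 (36.9 CPM) and Defa-ps4 (15.7 CPM), named after their values were seen. Defa-ps6 thus had a mean close to that of Defa41 (159 CPM) and above that of Defa28, and its 136 to 187 CPM with standard diet and 150 to 178 CPM with zinc depletion overlapped.

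The order of the 6 genes changed when the mean CPM was divided by the number of 75-base stretches specific to the gene, an alternative chosen after seeing the data. This gave 163 CPM per specific stretch for Defa5, 97.7 for Defa17, 11.6 for Defa26, 8.62 for Defa3, 0.664 for Defa41 and 0.210 for Defa28, against 759 for Defa24. Defa5 moved from the third to the highest place and Defa26 from the highest to the third. The place of Defa5 rests on 7 specific stretches and depends on the length chosen. It had 0 specific stretches at 50 bases and 32 at 100 bases, whereas Defa17 had 28 at each of the 3 lengths.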
